A study of Mus musculus with 6 samples.

Results

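The enzymes that build triglyceride from glycerol phosphate were examined in immortalized mouse podocytes, the epithelial cells that wrap the capillaries of the kidney filter. The set was fixed by gene name as 10 acyltransferases and lipins (Gpam, Gpat3, Gpat4, Agpat2, Agpat3, Lpin1, Lpin2, Lpin3, Dgat1 and Dgat2), and all 10 were found among the 57132 genes of the count table. RNA was sequenced from 3 samples of the IMWT line (genotype WT-Col4a3+/+, called WT) and 3 samples of the IMAS line (genotype AS - Col4a3-/-, called AS), the second being a model of Alport syndrome, a hereditary disease of the collagen in the filter's basement membrane. The titles describe both lines as coming from 8-week-old males. Per the paper's methods, the lines were derived from Col4a3 knockout mice crossed with H-2kb-tsA58 mice, whose transgene carries a temperature-sensitive viral T antigen that lets cells divide at the lower temperature. All 6 samples therefore came from lines made with this transgene, were untreated, and were kept with 10% serum and 20 U/mL interferon gamma at 33 °C before 14 days of differentiation at 37 °C, according to the labels. The paper's methods give a lower interferon gamma concentration, its withdrawal at 37 °C and fewer days. Each genotype was 1 cell line, and an effect of the genotype cannot be told apart from one of the line. The paper states in general that independent experiments were analysed, without naming these sets, and the labels do not say whether the numbered sets of a line are separate cultures. The p-values therefore measure the spread between these samples only, which may be technical.

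Triglyceride is assembled stepwise in the glycerol phosphate pathway. A glycerol-3-phosphate acyltransferase (GPAT) adds the first fatty acid, an acylglycerol-phosphate acyltransferase (AGPAT) adds the next and yields phosphatidate, a lipin removes the phosphate to leave diacylglycerol, and a diacylglycerol acyltransferase (DGAT) adds the last fatty acid. The intermediates phosphatidate and diacylglycerol are also used for phospholipids, and the finished triglyceride is stored in lipid droplets, which the study examined in these lines by other methods. Several isozymes serve each step, and the counts were used to ask which isozyme transcripts each line held and how they differed in AS podocytes. Counts are per gene, so splice forms of one gene could not be separated. The amount and activity of the enzymes were not measured by these counts.

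Between 45417221 and 54290968 reads were counted per sample, and levels are in CPM, the count of a gene brought to a common library size, with sizes corrected by TMM (a trimmed mean of ratios between libraries). The members held between 118 and 7034 counts in any sample, and all 10 passed the filter on low counts. Col4a3, the gene knocked out in the AS line, was at 938, 1052 and 1272 CPM in WT and 62.4, 61.2 and 82.9 CPM in AS samples, lower in every AS sample, in accordance with the labels. Of 10 podocyte markers, Tcf21 had 0 counts in every sample and Nphs1 had 21 to 24 counts per WT and 0 to 4 per AS sample, while the summed level of the list was 1724 to 1896 CPM in WT and 1292 to 1379 CPM in AS samples, with 1 marker higher and 6 lower in AS podocytes. Most of this sum came from Synpo and Actn4, which encode actin-binding proteins. Adipocyte markers, whose cells make triglyceride in bulk, were near 0, with none of 5 passing the filter and a sum of at most 0.192 CPM in any sample, and Cidec and Lep at 0 in all 6. The other marker lists were at 0.729 to 1.35 CPM in WT and 0.178 to 0.603 CPM in AS samples for endothelium, 11.2 to 15.0 and 5.08 to 7.02 CPM for leukocytes, 246 to 307 and 197 to 307 CPM for tubule, 863 to 1164 and 733 to 845 CPM for parietal epithelium, and 5749 to 7899.6 and 6417 to 7542 CPM for mesangial cells and fibroblasts. The summed podocyte, parietal epithelium, endothelial, leukocyte and adipocyte markers were thus lower in every AS sample than in every WT sample, and the part of this in the differences between the lines was not tested. The endothelial and adipocyte sums rest on low counts. Of 4 parietal epithelium markers, 1 was lower in AS podocytes at an edgeR adjusted p below 0.05 and 3 did not pass. Some sums mainly reflect 1 gene and are not levels of a cell type. Acta2, at 5500 to 7644 CPM in WT and 6293 to 7417 CPM in AS samples, made up nearly all of the mesangial and fibroblast sum. In that list Pdgfrb was lower in AS podocytes, with means of 253 and 116 CPM (edgeR adjusted p = 8.71e-07), and 5 markers did not pass. Lrp2 made up nearly all of the tubule sum and Csf1r most of the leukocyte sum.

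Of the 10 enzymes, 7 differed between the lines (edgeR quasi-likelihood test, adjusted p below 0.05), 4 of them higher in AS podocytes (Gpam, Gpat4, Agpat2 and Dgat1) and 3 lower (Agpat3, Lpin2 and Lpin3). Among all 16263 genes tested, 40.1% passed the same threshold, 20.4% higher and 19.6% lower in AS podocytes. The CPM of the lines did not overlap in the same 7 members, against 52.3% of all genes tested. The median absolute log2 fold change was 0.38 for the members and 0.28 for all genes tested, and the median signed value was -0.12 for the members and 0.01 for all genes. A fold change over 2 with an adjusted p under 0.05 was seen in 1 member, Lpin3, and in 11.2% of all genes. In bulk RNA, fewer cells that express a gene and less RNA per cell cannot be told apart.

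**Figure D1:**
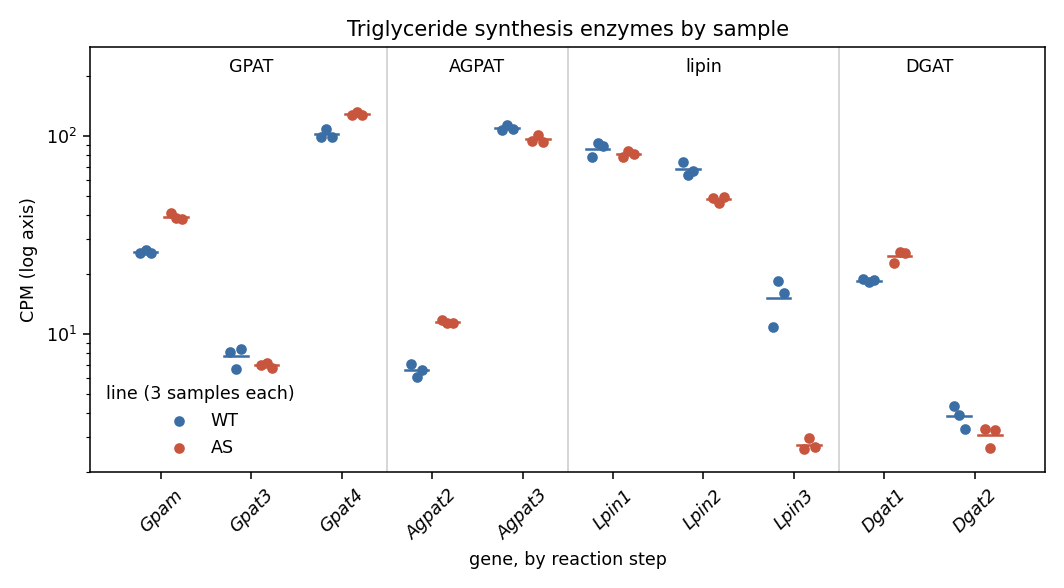
CPM on a log axis for the 10 enzymes in each of 3 WT and 3 AS samples, grouped by reaction step. Points are samples and short lines are means of 3. The AS points lie above the WT points for Gpam, Gpat4, Agpat2 and Dgat1 and below them for Agpat3, Lpin2 and Lpin3, with the widest gap at Lpin3 (means of 15.2 and 2.76 CPM).

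The sequences upstream of the 4 members with the largest absolute log2 fold changes are shown first, so that their values can be read beside the region before an annotated start of transcription. They are the 250 bases before the RefSeq transcription start on GRCm38.p6, printed 5′ to 3′ on the gene's strand, and where RefSeq gave several starts the one with the most GENCODE M21 transcript starts within 100 bases was taken. Capitals mark matches, on either strand, to any of 4 short motifs. CCAAT, which appears as ATTGG when it lies on the other strand, is the core of the motif of the factor NF-Y. GGGCGG is the GC box, CACGTG is an E-box, and TCACNCCAC is a sterol regulatory element as known from promoters of lipid genes.
Gpam, chr19:55127239-55127488, minus strand: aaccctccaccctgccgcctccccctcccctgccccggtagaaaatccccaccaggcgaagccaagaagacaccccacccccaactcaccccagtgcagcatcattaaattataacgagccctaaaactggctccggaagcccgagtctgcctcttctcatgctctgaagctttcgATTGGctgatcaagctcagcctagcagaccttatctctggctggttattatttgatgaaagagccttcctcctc
Agpat2, chr2:26604418-26604667, minus strand: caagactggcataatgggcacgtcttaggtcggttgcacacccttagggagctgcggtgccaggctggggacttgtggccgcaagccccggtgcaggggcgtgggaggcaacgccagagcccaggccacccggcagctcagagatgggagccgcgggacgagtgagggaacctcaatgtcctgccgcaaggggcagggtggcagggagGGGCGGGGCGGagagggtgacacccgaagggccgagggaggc
Lpin2, chr17:71204404-71204653, plus strand: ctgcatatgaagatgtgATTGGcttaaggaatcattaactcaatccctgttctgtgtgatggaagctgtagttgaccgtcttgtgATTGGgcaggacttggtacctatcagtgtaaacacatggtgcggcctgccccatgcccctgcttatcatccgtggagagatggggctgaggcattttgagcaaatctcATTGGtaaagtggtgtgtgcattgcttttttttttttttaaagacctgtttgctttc
Lpin3, chr2:160887918-160888167, plus strand: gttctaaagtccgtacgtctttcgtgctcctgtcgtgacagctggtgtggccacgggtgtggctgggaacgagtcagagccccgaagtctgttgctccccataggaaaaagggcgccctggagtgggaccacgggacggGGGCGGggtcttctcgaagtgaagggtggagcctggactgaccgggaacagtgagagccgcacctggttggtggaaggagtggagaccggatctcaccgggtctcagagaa
The Gpam window held 1 CCAAT match and the Lpin2 window held 3, whereas the Agpat2 window held 2 overlapping GGGCGG matches and the Lpin3 window held 1. CCAAT occurred in 33.8% and GGGCGG in 32.7% of the 32851 windows of this length in the table, which are windows of starts and not of genes. Neither CACGTG (6.02% of all windows) nor TCACNCCAC (1.05%) occurred in the 4 windows shown. The G and C content was 54.8% for Gpam, 69.2% for Agpat2, 44.8% for Lpin2 and 61.6% for Lpin3. The matches depended on the start, and which start these cells used was not measured. The Lpin2 start shown had 2 of 13 M21 transcript starts within 100 bases, and its other RefSeq starts had 1 each. At other RefSeq starts of these genes, 1 further Gpam window and 2 further Lpin2 windows held GGGCGG and no CCAAT, 1 of the latter also held CACGTG, and 1 further Lpin3 window held none of the motifs. Windows were found for 7 of the 10 members.

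Most of the transcript of the first step was that of Gpat4, an enzyme of the endoplasmic reticulum. Gpat4 (ENSMUSG00000031545.7, chromosome 8) was at 98.6, 108 and 98.4 CPM in WT and 127, 132 and 128 CPM in AS samples. Every AS sample lay above every WT sample, and the log2 fold change was 0.34 (standard error 0.06, edgeR adjusted p = 0.00121), a level 1.27 times that of WT. The 611 genes of chromosome 8 with a mean log2 CPM over 2 were higher in AS podocytes as a group, with a median of 0.31 relative to all chromosomes. With the median of each chromosome removed, the Gpat4 log2 fold change was 0.03 and no longer passed (edgeR adjusted p = 0.698, against a range of 1.53e-05 to 0.698 over its 14 alternatives).

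Gpam, the GPAT of the mitochondrial outer membrane (ENSMUSG00000024978.12, chromosome 19), was at 25.6, 26.4 and 25.5 CPM in WT and 40.9, 38.4 and 37.9 CPM in AS samples. The samples of each line lay close together and the lines did not overlap. The log2 fold change was 0.60 (standard error 0.06, edgeR adjusted p = 8.38e-05), or 1.51 times the WT level, and it was 0.42 with chromosome medians removed (edgeR adjusted p = 0.000782, the largest of its 14 alternatives, which went down to 1.11e-11). Gpat3 (ENSMUSG00000029314.15, chromosome 5), the other GPAT of the endoplasmic reticulum measured here, was at 8.10, 6.62 and 8.43 CPM in WT and 6.97, 7.16 and 6.76 CPM in AS samples. These values overlapped, and the log2 fold change of -0.15 (standard error 0.13, edgeR adjusted p = 0.387) was not past the threshold. The antisense gene 4930458D05Rik overlaps Gpat3 and held 124 to 151 counts per sample, against 310 to 411 for Gpat3. The use of strand in counting is not given in the sources used here, so the Gpat3 level is uncertain.

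Both listed AGPAT genes changed, in opposite directions. Agpat2 (ENSMUSG00000026922.14, chromosome 2), the enzyme whose loss causes congenital generalized lipodystrophy, was at 7.02, 6.06 and 6.59 CPM in WT and 11.8, 11.3 and 11.4 CPM in AS samples. It rose in AS podocytes to 1.75 times the WT level, the largest increase among the members, a log2 fold change of 0.81 (standard error 0.11, edgeR adjusted p = 0.000296). The opposite-strand gene Egfl7 overlaps Agpat2 and held 6 to 17 counts per sample.

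Agpat3 (ENSMUSG00000001211.16, chromosome 10), an acyltransferase that favours polyunsaturated fatty acids, was at 108, 113 and 108 CPM in WT and 94.2, 101 and 93.0 CPM in AS samples. It was lower in each AS sample than in each WT sample, by -0.19 on the log2 scale (standard error 0.05, edgeR adjusted p = 0.0202), or 0.876 times the WT level. The call was lost with library size in place of TMM (edgeR adjusted p = 0.0540), without WT replicate 2 (0.0778), without AS replicate 1 (0.0662) and without AS replicate 3 (0.0919), while its 14 alternatives reached down to 0.000119. The 523 genes of chromosome 10 had a median of 0.31 relative to all chromosomes, in the direction opposite to Agpat3, and with chromosome medians removed the Agpat3 log2 fold change was -0.50 (edgeR adjusted p = 0.000119).

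The lipins fell or did not pass the test. Lpin3 (ENSMUSG00000027412.13, chromosome 2), a lipin known mainly from intestine and liver, was at 10.9, 18.5 and 16.1 CPM in WT and 2.62, 2.98 and 2.69 CPM in AS samples. The WT samples varied more than those of any other member relative to their mean, with replicate 1 lowest, yet all lay above the AS samples. The log2 fold change was -2.45 (standard error 0.20, edgeR adjusted p = 1.37e-05), which is 0.183 times the WT level, and it stayed between -2.65 and -2.29 in the 14 alternatives.

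Lpin2 (ENSMUSG00000024052.18, chromosome 17), the lipin mutated in the inflammatory bone disorder Majeed syndrome, was at 74.1, 63.8 and 66.5 CPM in WT and 48.8, 45.7 and 49.1 CPM in AS samples. The lines did not overlap, and Lpin2 fell to 0.702 times the WT level, a log2 fold change of -0.51 (standard error 0.07, edgeR adjusted p = 0.000404). Lpin1 (ENSMUSG00000020593.17, chromosome 12), which is mutated in the fatty liver dystrophy mouse, was at 78.6, 91.9 and 88.5 CPM in WT and 78.5, 83.5 and 81.3 CPM in AS samples. Its values overlapped between the lines, and the log2 fold change of -0.09 (standard error 0.07, edgeR adjusted p = 0.319) was not past the threshold. WT replicate 1 decided this, since without it the value was -0.15 and passed (edgeR adjusted p = 0.0482, the smallest of its 14 alternatives, which went up to 0.681).

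At the last step, Dgat1 rose. Dgat1 (ENSMUSG00000022555.13, chromosome 15), a membrane-bound O-acyltransferase of the endoplasmic reticulum, was at 18.9, 18.2 and 18.7 CPM in WT and 22.8, 25.8 and 25.6 CPM in AS samples. All AS samples lay above all WT samples, and the log2 fold change was 0.41 (standard error 0.08, edgeR adjusted p = 0.00209), or 1.33 times the WT level. Genes of chromosome 15 had a median of 0.19 relative to all chromosomes, and with chromosome medians removed the Dgat1 value was 0.22 (edgeR adjusted p = 0.0478, the largest of its 14 alternatives, which went down to 9.53e-05).

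Dgat2 (ENSMUSG00000030747.6, chromosome 7), an enzyme unrelated to Dgat1 in sequence that also sits at lipid droplets, was the least abundant member in CPM in WT podocytes, at 4.32, 3.89 and 3.29 CPM against 3.33, 2.66 and 3.27 CPM in AS samples. The lines overlapped, and the log2 fold change of -0.31 (standard error 0.17, edgeR adjusted p = 0.181) was not past the threshold.

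**Figure D2:**
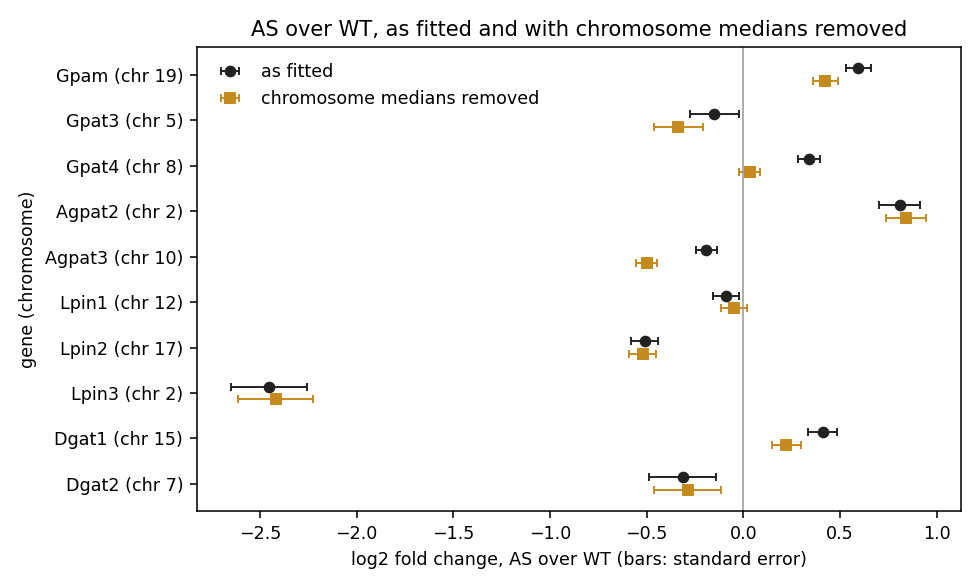
Log2 fold change of AS over WT for the 10 enzymes with the standard error as bars, as fitted (circles) and after the median of each chromosome was removed (squares). The Gpat4 value moved from 0.34 to 0.03 and that of Agpat3 from -0.19 to -0.50, while Lpin3 went from -2.45 to -2.42.

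Levels were compared between genes as CPM per kilobase of the exons of each gene. In WT podocytes the order was Gpat4 (15.2 ± 0.836), Agpat3 (14.1 ± 0.385), Lpin1 (8.93 ± 0.715), Dgat1 (6.09 ± 0.120), Lpin2 (5.57 ± 0.438), Lpin3 (4.10 ± 1.06), Gpam (3.88 ± 0.0749), Agpat2 (3.08 ± 0.224), Gpat3 (2.20 ± 0.275) and Dgat2 (1.24 ± 0.167), each as mean CPM per kilobase ± SD (n = 3). The samples of Dgat1 and Lpin2 overlapped, as did those of Lpin3 and Gpam, and all other neighbours in this order were separate. In AS podocytes the order was Gpat4 (19.3 ± 0.399), Agpat3 (12.3 ± 0.564), Lpin1 (8.39 ± 0.261), Dgat1 (8.09 ± 0.557), Gpam (5.86 ± 0.248), Agpat2 (5.39 ± 0.111), Lpin2 (3.91 ± 0.155), Gpat3 (1.99 ± 0.0572), Dgat2 (1.00 ± 0.119) and Lpin3 (0.747 ± 0.0512) on the same scale, with overlap between Lpin1 and Dgat1 only. Gpat4, Agpat3 and Lpin1 held the first 3 ranks in both lines, also with the longest or the median protein-coding transcript as the length. Lpin3 was last in AS podocytes with each length, while in WT podocytes its rank was 6 with all exons, 7 with the longest and 8 with the median transcript. Lpin2 ranked above Dgat1 in WT podocytes with either other length. Further genes changed places with length, among them Lpin2, which ranked above Gpam in AS podocytes with either other length. With the median transcript, Agpat3 ranked above Gpat4 in WT podocytes.

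The share of each isozyme in its step was taken from the same values per kilobase. Gpat4 held 71.4 ± 1.76% of the GPAT step in WT and 71.1 ± 0.906% in AS podocytes (mean ± SD, n = 3 each), values that overlapped. Gpam went from 17.98 to 18.4% across the WT samples to 20.9 to 22.6% across the AS samples, and Gpat3 went from 8.58 to 11.5% to 7.22 to 7.42%. Agpat2 held 19.2, 16.4 and 18.2% of the sum of both listed AGPAT genes in WT and 31.3, 29.1 and 30.9% in AS samples, with Agpat3 as the remainder. When Agpat1, Agpat4 and Agpat5 were added, Agpat1 led with 51.0 ± 0.802% in WT and 45.5 ± 0.632% in AS podocytes, and Agpat3 held 19.96 ± 0.439% and 17.1 ± 0.352% (mean ± SD, n = 3 each).

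Shares of lipins also differed between the lines. Lpin1 held 47.5, 48.2 and 48.3% of the lipin step in WT and 63.4, 65.6 and 63.9% in AS samples, while Lpin3 held 17.2, 25.4 and 23.0% in WT and 5.53, 6.11 and 5.53% in AS samples. The Lpin3 share depended on the length used, at 13.6% in WT and 3.34% in AS podocytes with the longest protein-coding transcript and 10.6% and 2.53% with the median one. Lpin2 held 30.2 ± 4.65% in WT and 29.98 ± 1.47% in AS podocytes, with overlap. Dgat1 led the last step with 83.1 ± 1.88% in WT and 88.9 ± 1.70% in AS podocytes (mean ± SD, n = 3 each), and its samples did not overlap between the lines.

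**Figure D3:**
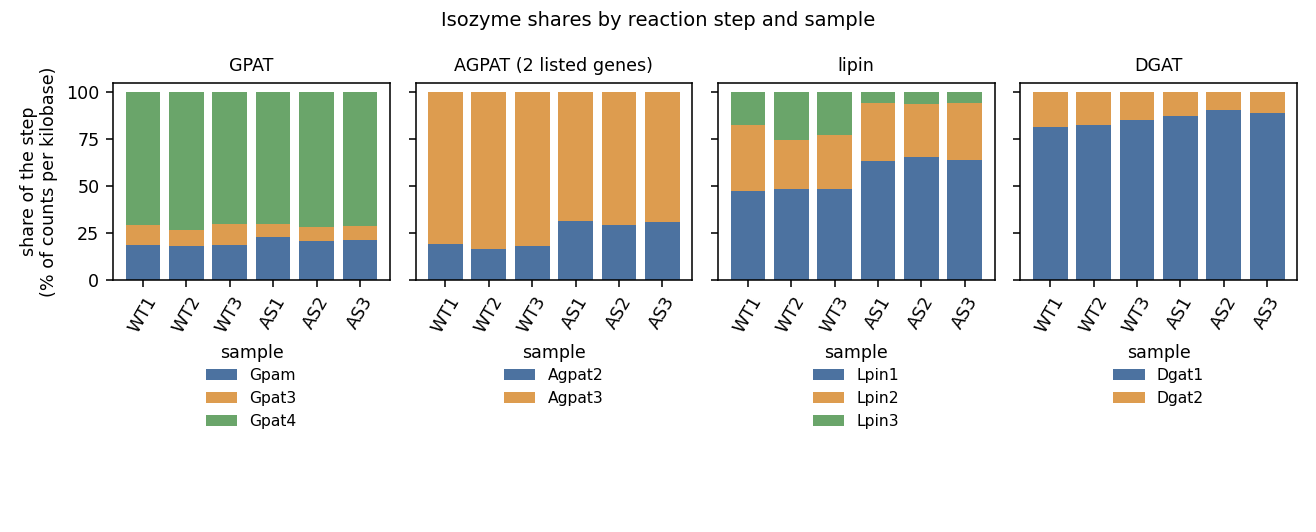
Share of each isozyme in its reaction step, as a percentage of the summed CPM per kilobase, in each of 3 WT and 3 AS samples. The Lpin1 part widened from 48.0% to 64.3% on average and the Lpin3 part narrowed from 21.8% to 5.72%, while the Gpat4 part stayed at 71.4% and 71.1%.

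The ratio of isozymes within a step, in which gene length cancels, was compared over the 8 pairs within steps. The ratio of Agpat2 to Agpat3 was higher in AS podocytes by 1.00 on the log2 scale, that of Lpin1 to Lpin3 by 2.34, that of Lpin2 to Lpin3 by 1.91, that of Dgat1 to Dgat2 by 0.72, that of Gpam to Gpat3 by 0.74, that of Lpin1 to Lpin2 by 0.42 and that of Gpam to Gpat4 by 0.25. The Gpat3 to Gpat4 ratio differed by -0.48. The samples of the lines did not overlap in any of the 8 ratios, and the two-sided exact permutation p was 0.10 for each (0.10 after Benjamini-Hochberg adjustment over the 8 pairs), the smallest that 3 samples against 3 can give.

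The summed level per step moved in different directions along the pathway. The GPAT sum was 21.3 ± 0.640 CPM per kilobase in WT and 27.1 ± 0.413 in AS podocytes, 1.27 times as high. The AGPAT sum of the 2 listed genes was 17.2 ± 0.193 and 17.7 ± 0.525, and its samples overlapped (exact permutation p = 0.20). This sum depended on the division by length. In plain CPM it was 114.7 to 119.2 in WT and 104.4 to 112.5 in AS samples, lower without overlap. The sums of the other steps kept their direction in plain CPM. The lipin sum was 18.6 ± 1.33 in WT and 13.05 ± 0.200 in AS podocytes, 0.701 times the WT value. The DGAT sum was 7.33 ± 0.216 and 9.09 ± 0.491, 1.24 times as high in AS podocytes (mean ± SD, n = 3 each). For GPAT, lipin and DGAT the lines did not overlap, and the exact permutation p was 0.10, the smallest possible. Gpat4 was the largest part of the GPAT sum, at 15.2 CPM per kilobase in WT and 19.3 in AS podocytes. With chromosome medians removed, the log2 fold change was 0.03 for Gpat4, 0.42 for Gpam and 0.22 for Dgat1. The sums were not recalculated with other gene lengths or with chromosome medians removed.

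Other genes that feed, compete with or regulate the pathway were read from the same fit. Of 56 such genes found in the table, 51 passed the filter, and 28 of these passed an adjusted p of 0.05 by edgeR, 15 higher and 13 lower in AS podocytes, with a median log2 fold change of 0.01. Of these genes 54.9% were called, against 40.1% of all genes tested, and the same background (20.4% higher and 19.6% lower) stands beside the small groups that follow. Of 4 genes that make or use glycerol phosphate, 3 were lower at the threshold. The remaining one, the mitochondrial dehydrogenase Gpd2, uses glycerol phosphate and does not supply it. It was the most abundant of the 4 in CPM, at means of 85.4 in WT and 87.2 in AS podocytes, and did not pass (edgeR adjusted p = 0.722). Gpd1l, related to the dehydrogenase that makes glycerol phosphate, averaged 55.8 ± 2.26 CPM in the WT samples and 35.9 ± 3.24 CPM in the AS samples (SD, n = 3 each), which is -0.64 on the log2 scale (edgeR adjusted p = 0.000177). That dehydrogenase itself, Gpd1, was low in both lines at 2.10 ± 0.419 and 1.01 ± 0.283 CPM, with a log2 fold change of -1.05 (edgeR adjusted p = 0.0130), and Gk, which phosphorylates glycerol, was at -0.39 (edgeR adjusted p = 0.00628).

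Among the other acyltransferases and their partners, 2 of 8 tested genes rose and none fell at the threshold. Mogat2, a monoacylglycerol acyltransferase that makes diacylglycerol without the lipin step and is known from intestine, rose from 0.284 ± 0.164 to 3.73 ± 0.568 CPM (SD, n = 3 each), which is 3.72 on the log2 scale (edgeR adjusted p = 5.83e-05). Agpat4 rose from 35.8 ± 1.99 to 46.5 ± 0.518 CPM (edgeR adjusted p = 0.00126), while Agpat1 was at 108 ± 2.80 and 98.8 ± 3.61 CPM and did not pass (edgeR adjusted p = 0.0778). Gpat2 and Mogat1 did not pass the filter on low counts.

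The lipid phosphate phosphatases of the Plpp family, which remove phosphate from phosphatidate and other lipids independently of lipins, were higher in AS podocytes in 4 of 5 genes. The other gene, Plpp3, was the most abundant of the 5 in CPM, at 127 ± 39.4 in WT and 168 ± 10.0 in AS podocytes. Its samples overlapped between the lines, and it did not pass (edgeR adjusted p = 0.0913, 1.22e-05 to 0.270 over its 14 alternatives). Plpp1 rose from 31.9 ± 3.01 to 57.3 ± 1.62 CPM (log2 fold change 0.85, edgeR adjusted p = 3.12e-05) and Plpp6 from 9.41 ± 0.918 to 14.7 ± 0.509 CPM (0.64, edgeR adjusted p = 0.000954). Plpp2 (chromosome 10) was at 18.9 ± 2.60 and 27.9 ± 1.64 CPM (0.56, edgeR adjusted p = 0.00218), and it lost the call with chromosome medians removed, at 0.25 (edgeR adjusted p = 0.0921, the largest of its 14 alternatives, which went down to 1.20e-06). So did the remaining called gene of the group, Plpp5 on chromosome 8 (edgeR adjusted p = 0.0120 as fitted and 0.817 with medians removed, the largest of its 14, down to 0.000662), which was named after its values were seen. Of the phosphatase complex that activates lipins, Cnep1r1 (chromosome 8) had a log2 fold change of 0.25 (edgeR adjusted p = 0.0283). Its sign changed to -0.06 with chromosome medians removed, and the call was also lost without WT replicate 1, WT replicate 2, AS replicate 1 or AS replicate 2 (adjusted p up to 0.589 over its 14 alternatives). Its partner Ctdnep1 was at 0.11 (edgeR adjusted p = 0.205).

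Genes that divert phosphatidate or diacylglycerol changed in both directions. Of 8 tested diacylglycerol kinases, which turn diacylglycerol back into phosphatidate, 2 rose and 3 fell. Dgkz fell from 117 ± 8.50 to 45.5 ± 3.24 CPM (log2 fold change -1.36, edgeR adjusted p = 1.24e-06) and Dgkg from 14.3 ± 5.54 to 0.731 ± 0.249 CPM (-4.30, edgeR adjusted p = 1.21e-05), whereas Dgka (chromosome 10) rose from 51.2 ± 3.57 to 99.1 ± 12.2 CPM (0.95, edgeR adjusted p = 4.54e-05). Of 14 genes leading to phospholipids, 3 rose and 7 fell. Selenoi, which makes phosphatidylethanolamine from diacylglycerol, rose from 58.6 ± 3.19 to 89.3 ± 0.947 CPM (0.61, edgeR adjusted p = 4.11e-05), Pcyt1b of phosphatidylcholine synthesis fell by 0.43 on the log2 scale (edgeR adjusted p = 0.00126), and Cds2, which consumes phosphatidate, fell from 175 ± 7.80 to 139.5 ± 10.1 CPM (-0.33, edgeR adjusted p = 0.00371).

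**Figure D4:**
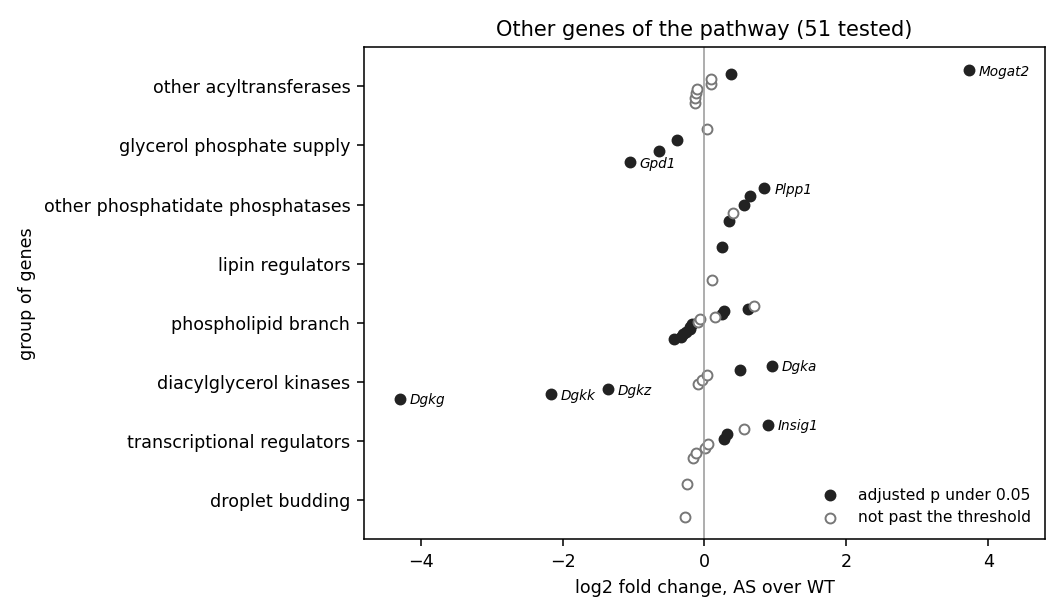
Log2 fold change of AS over WT for the 51 other genes of the pathway that passed the filter, by group, with filled points for an edgeR adjusted p below 0.05. The phosphatases lie to the right of 0 and the glycerol phosphate genes mostly to the left, while Mogat2 (3.72) and Dgkg (-4.30) stand farthest out.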

How the data were processed

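mRNA-seq libraries of 3 WT and 3 AS samples were used. The values the authors deposited are raw counts per gene, not normalized. Per the submitters' processing notes, FastQC, Trim Galore, STAR, edgeR and the build mm39 were used, while the counting tool, annotation release and strand setting are not given in the sources consulted. Identifiers without their version were named from GENCODE M21 (GRCm38), and 51880 of 57132 matched. M21 also gave chromosomes, exon lengths, overlapping genes and the transcript starts used to choose upstream windows, and no gene coordinates on mm39 are given. Upstream sequences are from RefSeq on GRCm38.p6.

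The analysis used edgeR 4.0.16 under R 4.3.3. Genes passing filterByExpr (minimum count 10, minimum total count 15) were kept, TMM factors were applied, and AS was set over WT by the quasi-likelihood test, two-sided, with genotype as the only term and Benjamini-Hochberg adjustment over all 16263 genes. Standard errors are approximate, taken as the fitted change over the root of the F statistic. CPM per kilobase used the union of each gene's M21 exons. Counts ran from 118 to 7034, so counting error was small for the abundant members and larger for low ones such as Dgat2 and, in AS samples, Lpin3. Reads are also not independent molecules. Alternatives were other scalings, DESeq2 1.42.0, limma-voom 3.58.1 (the paper's method), other filters, a replicate block, each sample left out, chromosome medians removed and other lengths. Adding Agpat1, Agpat4 and Agpat5 to the AGPAT step, and ranking levels with other lengths, were chosen after seeing the data. The members, lists and marker lists were chosen with earlier results of these data known. All members are named, with Col4a3 and up to 3 genes of smallest adjusted p from each group of the other pathway genes. Plpp3, Plpp5, Gpd2, Agpat5 and the untested Gpat2 and Mogat1 are named beyond this rule, after their values were seen. Ldaf1 of that list was not matched.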

Additional observations from a re-analysis of the deposited data

How the results depend on the processing

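The number of genes called stayed within 1.5 times its main value in every alternative run, from 5120 to 7066 of all genes against 6517, from 6 to 8 of the 10 enzymes against 7, and from 24 to 30 of the other pathway genes against 28. Of 140 values for the 10 enzymes, 134 kept their direction and side of the threshold, 5 lost the threshold, 1 gained it and 0 reversed. The 5 were Agpat3 in 4 alternatives and Gpat4 with chromosome medians removed, which by construction lowers the genes of chromosome 8. The cause was not tested for Agpat3. Of the 28 other genes called, 19 kept the call in every alternative.

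Shares depend on the gene length used. With the longest protein-coding transcript in place of all exons, Gpat4 held 73.3% of its step in WT and 73.1% in AS podocytes, Agpat3 67.5% in AS, Lpin1 61.0% in AS and Dgat1 85.4% in WT podocytes. With the median protein-coding transcript, the shares in WT and AS podocytes were 76.3% and 75.1% for Gpat4, 87.1% and 77.2% for Agpat3, 50.2% and 61.6% for Lpin1, and 77.3% and 84.8% for Dgat1. Of the minor isozymes, Gpat3 in WT podocytes went from 10.4% to 6.36% with the median transcript, and Lpin3 fell by over 1.5 times in both lines with either length. The Lpin2 share was higher in both lines with either length. The leading isozyme of each step was the same with each length. With Agpat1, Agpat4 and Agpat5 added, Agpat3 held 19.96% and 17.1%. The 8 ratios between isozymes kept their sign with each sample left out.

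Whether the set numbers pair the samples was not settled by the data. Deviations from the line means correlated at 0.147, 0.0939 and 0.0526 for the same number. For different numbers the correlations were -0.130 to -0.0206, except for WT set 3 with AS set 2, at 0.0571. The replicate block gave 7066 genes, 7 enzymes and 29 other pathway genes, and an exact paired p of 0.25, the smallest possible, for each ratio. It changed no call among the enzymes.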

Other observations

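Regulators of lipid synthesis were read from the same fit. Of 8 tested, 3 were higher and 0 lower in AS samples (edgeR adjusted p below 0.05), a share of 37.5% against 40.1% of all genes tested. Insig1, which holds the SREBP precursor in the endoplasmic reticulum and is itself an SREBP target, averaged 21.3 ± 0.537 CPM in the WT samples and 39.8 ± 6.30 CPM in the AS samples (SD, n = 3 each), which is 0.90 on the log2 scale (edgeR adjusted p = 0.000163). Scap, the escort of SREBP, was at 79.6 ± 2.76 and 99.4 ± 3.27 CPM (0.32, edgeR adjusted p = 0.00132), and Srebf1, which encodes the SREBP known to drive Gpam in liver, was at 67.9 ± 4.31 and 82.3 ± 4.35 CPM (0.28, edgeR adjusted p = 0.00830). Both listed droplet budding genes were lower in mean without passing the threshold: Fitm2 was at 23.6 ± 2.01 and 19.9 ± 1.55 CPM (-0.25, edgeR adjusted p = 0.0520), and Bscl2, which encodes seipin, was at 37.7 ± 7.16 and 31.1 ± 1.24 CPM (-0.28, edgeR adjusted p = 0.0962). Fitm2 passed in 5 of its 14 alternatives and Bscl2 in 3, among them the fit without WT replicate 1 for Bscl2 and the fit without WT replicate 2 for Fitm2.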
